A study of Bos taurus with 6 samples.

Results

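The miRNAs of the imprinted DLK1-DIO3 region were followed in extracellular vesicles (EVs, membrane particles that cells release) from the milk of 6 Holstein cows. Of these, 3 cows ate a total mixed ration (control diet), and for the other 3 soybean hull and whole cotton seed stood in for part of the alfalfa hay (replacement diet). According to the labels the cows were at 101 ± 10 days in milk, weighed 574 ± 36 kg, gave 32 ± 2 kg of milk per day and stood in 6 climate chambers at 20 °C and 40% humidity. Small RNA libraries were read on an Illumina instrument, 1 library per cow. The labels do not say how the cows were assigned to the diets, and their ages were not given in the sources used here. The vesicles were isolated from milk with a commercial kit and were not sorted by their cell of origin.

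Members were chosen by name, as every known bovine miRNA whose number is among 40 numbers of the region. This gave 23 members out of 276 known miRNAs with counts, or 8.33%. In the RefSeq gene table of the cow assembly ARS-UCD2.0, 23 of the 23 members had a gene, and 23 of these genes lay between DLK1 and DIO3. That stretch held 59 miRNA genes, 52 of them with a number of the rule. For 29 of these 52 genes, no miRNA was among the known miRNAs with counts. The authors aligned to the earlier assembly ARS-UCD1.2, so only the order and neighbours of the genes are given, without coordinates.

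The DLK1-DIO3 region is among the large miRNA clusters of placental mammals. Its protein-coding genes DLK1, RTL1 and DIO3 are transcribed from the paternal chromosome, and its long non-coding RNAs MEG3, MEG8 and MEG9 and its miRNAs from the maternal one. The miRNAs are known for high levels in embryo, placenta and brain and low levels in most adult tissues. Imprinting itself, that is, which parental copy was read, was not measured in these data.

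The members fell into a group beside RTL1, with 6 members, and a group between MIR379 and MIR656, with 17 members. The gene of miR-127 lay within the span of RTL1, as did that of miR-433. These miRNAs are transcribed opposite to RTL1, whose mRNA they match, and miR-127 is a known repressor of it. The genes of miR-136 and miR-432 lay where the spans of RTL1 and MEG8 overlap, and that of miR-370 lay within MEG8.

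The mature sequences are printed as the count table gives them, with T for U and the seed (bases 2 to 8, which pair with targets) in capitals. The first 2 were counted in every cow, the next 2 had the highest counts among the members that were not, and the last 6 form the 3 pairs of members that differed at 4 or 5 positions.
bta-miR-127: tCGGATCCgtctgagcttggct
bta-miR-380-3p: tATGTAATgtggtccacgtct
bta-miR-665: aCCAGTAGgccgaggcccct
bta-miR-411a: aTAGTAGAccgtatagcgtacg
bta-miR-495: aAACAAACatggtgcacttctt
bta-miR-543: aAACATTCgcggtgcacttctt
bta-miR-154c: aGATATTGcacggttgatctct
bta-miR-369-3p: aATAATACatggttgatcttt
bta-miR-409a: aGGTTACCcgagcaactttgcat
bta-miR-409b: gGGGTTCAccgagcaacattc

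Each of the 23 members had a seed that no other known miRNA in the table carried. The most alike members, bta-miR-495 and bta-miR-543, differed at 4 positions, all others at 5 or more, when shifts of up to 2 bases were allowed. No other listed sequence came closer to a member than 6 mismatches, and the nearest to bta-miR-127 was at 7. Members ran from 20 to 23 nt with a median of 22, which was also the median of the other 253 known miRNAs. Their median GC content was 45.5%, against 45.8% in the others. An arm was part of the name in bta-miR-369-3p and bta-miR-380-3p alone.

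The libraries held 61156 to 176919 counts of known miRNAs, out of 12130660 to 13369168 reads that the authors used as the total for RPM (counts scaled to that total, per megaread). A known miRNA without a count could still hold up to 0.0017% of the known counts in the deepest library and 0.00491% in the shallowest, the limit that 3 counts set. Such limits, and the Wilson intervals given below, cover counting error only. Of 11 mammary epithelium miRNAs fixed as markers 11 were counted, 4 of them in every cow, and their summed share was 0.865% ± 0.236 (SD, n = 6 cows). For 7 red blood cell markers that were counted the summed share was 20.1% in control cow 3 and 6.52% to 10.9% elsewhere.

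The members were a minor part of the miRNA of milk EVs, and miR-127 made up most of them. Their summed share of the known counts was 0.253% ± 0.13 over the 6 cows (SD), from 1365 counts in all. Of these counts 942 (69.0%) fell on bta-miR-127, 170 (12.5%) on bta-miR-380-3p and 253 (18.5%) on the other 21 members. When any 1 cow was left out, the mean share lay between 0.209% and 0.286%. By mean share over the cows, bta-miR-127 ranked 54th and bta-miR-380-3p 99th among the 276 known miRNAs. No other member ranked above 163, the place of bta-miR-369-3p.

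The members received 510 counts on the control diet and 855 on the replacement diet. As a share of the known counts of each cow this was 0.292%, 0.0918% and 0.255% on the control diet and 0.166%, 0.241% and 0.474% on the replacement diet. The diets overlapped in this share, at 0.213% ± 0.107 (SD, n = 3) against 0.294% ± 0.161 (SD, n = 3). Without replacement cow 3, the difference between the diets went from 0.0805 to -0.00972 percentage points. It was -0.023 percentage points with all cows but without bta-miR-127. The direction of the difference in this share of known counts thus rested on that cow and on that miRNA. On the RPM scale the diets did not overlap, since the members summed to 11.8 to 15.7 RPM on the control diet, against 19.1 to 26.2 RPM on the replacement diet. Known miRNAs took unequal parts of the reads in the 6 libraries, which separates the 2 scales. No p is given for sums over the members, which were chosen with earlier results of these data known.

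**Figure D1:**
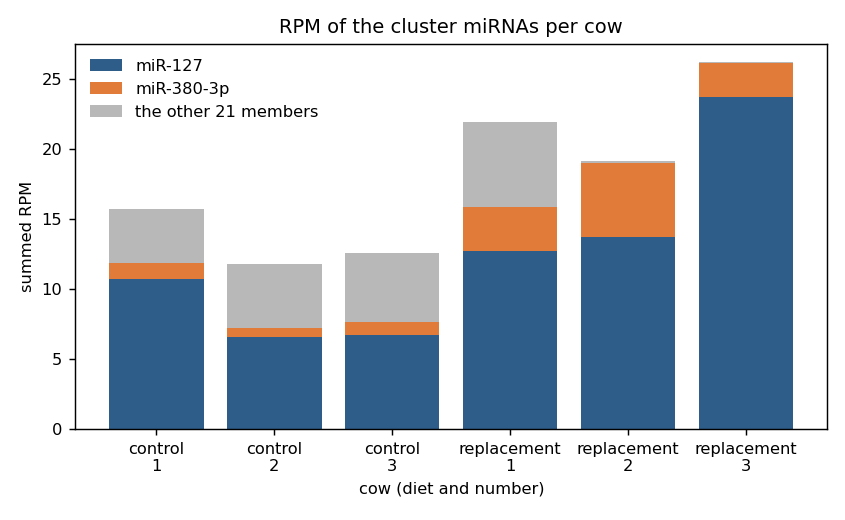
Summed RPM of the cluster miRNAs (y axis) in each of the 6 cows (x axis), with bars split into miR-127, miR-380-3p and the other 21 members. The control cows reach 11.8 to 15.7 RPM and the replacement cows 19.1 to 26.2 RPM, and the part of the other 21 members nearly vanishes in replacement cows 2 and 3.

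The most abundant member, bta-miR-127, was counted 140, 83 and 84 times in control cows 1 to 3, and at least 166 times in each replacement cow. Its share of the known counts was 0.199%, 0.0515% and 0.137% on the control diet, and 0.0961%, 0.172% and 0.429% on the replacement diet. Replacement cow 3 was the highest (95% Wilson interval 0.384% to 0.481%), control cow 2 was the lowest (0.0415% to 0.0638%), and the diets overlapped. Within single cows bta-miR-127 ranked between 38 and 83 among known miRNAs.

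In RPM the same miRNA stood at 10.7, 6.60 and 6.76 on the control diet, and at 12.7, 13.7 and 23.7 on the replacement diet. On this scale every replacement cow was above every control cow, at 16.7 ± 6.09 against 8.02 ± 2.32 RPM (SD, n = 3 each). The lowest replacement cow was 1.19 times the highest control cow. In the two-sided exact permutation test, p was 0.1 for RPM (0.709 adjusted over all 227 miRNAs tested) and 0.5 for the share (adjusted 0.994), where 0.1 is the smallest p that 3 cows against 3 allow. In edgeR's quasi-likelihood test the log2 fold change, replacement over control, was 0.81 with a standard error of 0.63 (Benjamini-Hochberg adjusted p = 0.986). Leaving out replacement cow 3 lowered it to 0.28.

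The second member found in every cow, bta-miR-380-3p, had 15, 8 and 11 counts on the control diet, against 42, 64 and 30 on the replacement diet. It held 0.0213%, 0.00496% and 0.018% of the known counts on the control diet, against 0.0237%, 0.0665% and 0.0431% on the replacement diet. All 3 replacement cows were thus above all 3 control cows, but the gap was narrow. The lowest replacement value was 1.12 times the highest control value, and their Wilson intervals overlapped (0.0176% to 0.0321% in replacement cow 1, 0.0129% to 0.0351% in control cow 1).

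The RPM values of bta-miR-380-3p were 1.15, 0.636 and 0.885 under control feeding, against 3.14, 5.28 and 2.38 under replacement. Here the gap was wider, and the lowest replacement cow was 2.08 times the highest control cow. The means were 0.889 ± 0.255 RPM on the control diet and 3.60 ± 1.5 RPM on the replacement diet (SD, n = 3 each). The two-sided exact permutation test gave p = 0.1 on both scales (adjusted 0.994 for the share and 0.709 for RPM). In edgeR its log2 fold change was 1.67 with a standard error of 1.00 (adjusted p = 0.986).

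**Figure D2:**
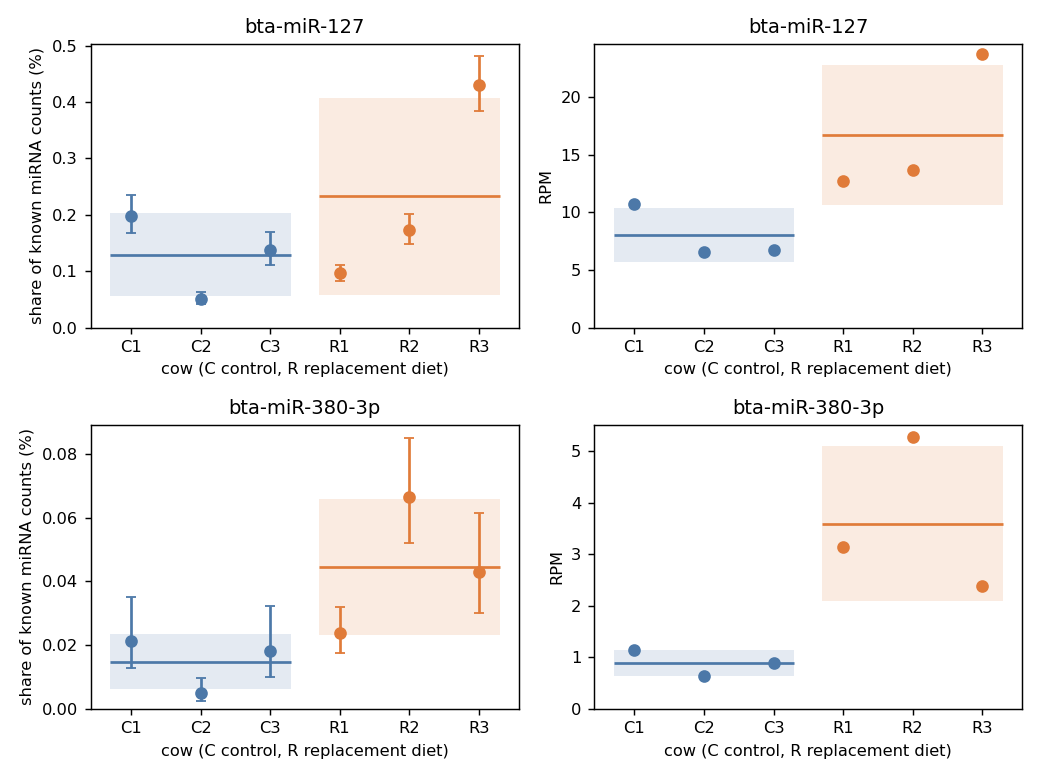
The 2 members counted in every cow, bta-miR-127 in the upper panels and bta-miR-380-3p in the lower ones, as share of known counts in percent (left, with 95% Wilson intervals of each cow) and as RPM (right). Points are cows, lines are diet means and bands are ± 1 SD over 3 cows. The diets overlap for bta-miR-127 as a share (0.0515% to 0.199% against 0.0961% to 0.429%) but not as RPM, and for bta-miR-380-3p they do not overlap on either scale.

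The members' differences were read against all miRNAs. Of the 227 known and predicted miRNAs that passed edgeR's filter on low counts, 7 (3.08%) were higher in every replacement cow as a share and 21 (9.25%) as RPM. The first group held bta-miR-380-3p and the second both members. A positive log2 fold change was found in 117 of the 227 (51.5%), with a median of 0.03. The value of bta-miR-127 was above 82.8% of them and that of bta-miR-380-3p above 94.3%. At an adjusted p under 0.05, edgeR called 0 of the 227 (0%), and thus neither member. At an unadjusted p under 0.05 there were 8 (3.52%), neither member among them. DESeq2 called 7 of all miRNAs and 0 members.

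The ratio of bta-miR-380-3p to bta-miR-127 counts does not depend on the library total. It was 0.107, 0.0964 and 0.131 with the control diet, against 0.247, 0.386 and 0.1 with the replacement diet. It was higher than in any control cow in replacement cows 1 and 2, whereas replacement cow 3, which had the most miR-127, lay within the control range.

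The remaining 21 members were counted in 3 cows at most, and mostly in different cows. Of them, 10 had counts in 1 cow, 9 in 2 cows and 2 in 3 cows. Those of 1 cow were bta-miR-136, bta-miR-154c, bta-miR-323, bta-miR-377, bta-miR-409a, bta-miR-409b, bta-miR-433, bta-miR-485, bta-miR-494 and bta-miR-495. In comparison, 101 of the other 253 known miRNAs (39.9%) were counted in every cow, against 2 of the 23 members (8.7%). Among known miRNAs that did not pass the filter on low counts, 47.6% of the 21 members were counted in 1 cow alone. For the non-members of that kind it was 55.9%, so counts in 1 cow alone were not more frequent among the members. The highest count among the 21 was 42, of bta-miR-665 in replacement cow 1, where control cow 1 had 5 and the other cows had 0. Next was bta-miR-411a with 32 counts in control cow 2, 4 in control cow 3 and 9 in replacement cow 1. A total of at most 3 counts over all cows was found for 6 members, bta-miR-370, bta-miR-377, bta-miR-409a, bta-miR-432, bta-miR-485 and bta-miR-494, which were at the limit of detection.

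In the RTL1 group, miR-127 held 942 of 1008 counts. Besides it and bta-miR-665, bta-miR-136 had 9 counts and bta-miR-433 had 5, all in control cow 2. The long non-coding MEG8 span contributed bta-miR-370, with 1 count each in control cows 2 and 3 and replacement cow 2. With 1 count each in control cow 3 and replacement cow 1, bta-miR-432 was the rarest of the group.

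In the group from MIR379 to MIR656, several members appeared together in control cow 3. There bta-miR-410 and bta-miR-487b had 13 counts each, bta-miR-369-3p had 12, bta-miR-543 had 8 and bta-miR-495 had 7. Of these, bta-miR-369-3p also had 10 counts in control cow 1, where bta-miR-410 and bta-miR-487b had 1 each. Control cow 1 in turn was the sole cow with bta-miR-323 and bta-miR-154c (11 counts each) and bta-miR-409b (9). In replacement cow 1, bta-miR-154b had 14 counts, bta-miR-543 had 11 and bta-miR-382 had 4. Of the 9 untested members seen in control cow 1 and the 6 seen in control cow 2, 0 were shared, while control cows 1 and 3 shared 3 (33.3% of the 9 in the former and 30% of the 10 in the latter).

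**Figure D3:**
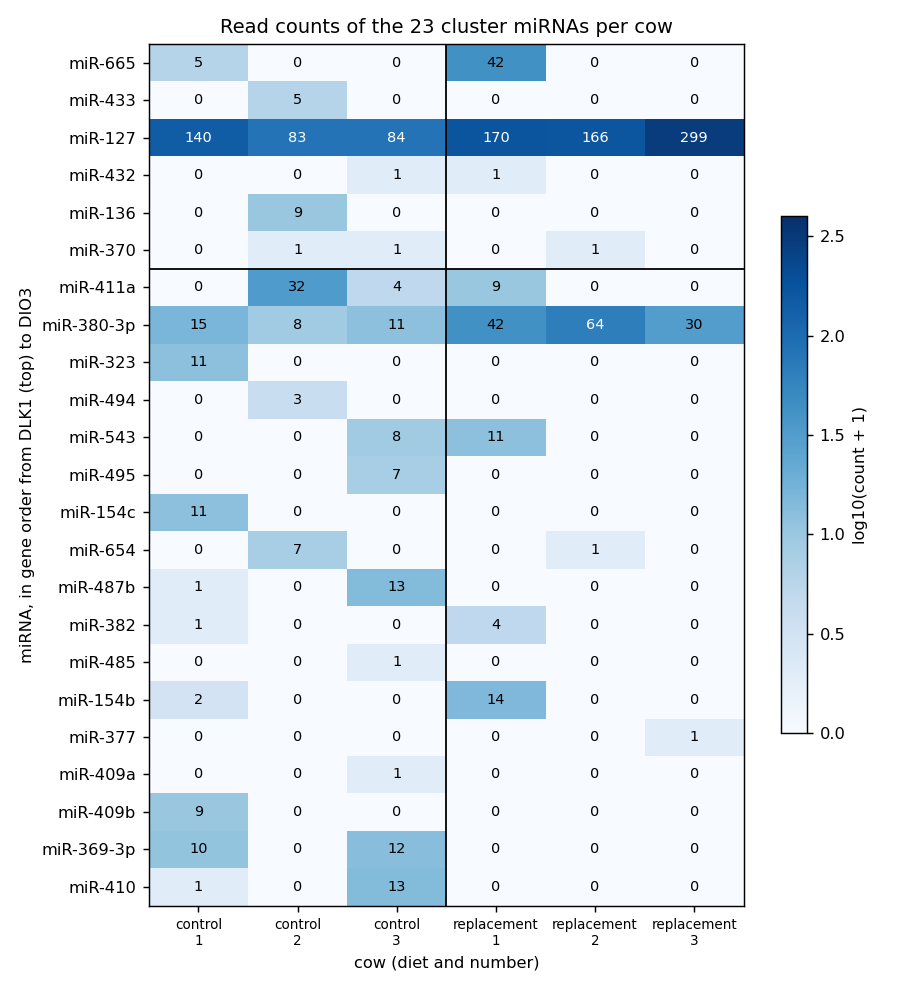
Read counts of the 23 members (rows, in gene order from DLK1 to DIO3) in the 6 cows (columns, control left and replacement right of the vertical line), with colour as log10 of count plus 1. The horizontal line divides the RTL1 group from the MIR379 to MIR656 group. Rows of miR-127 and miR-380-3p are filled in every cow, and the other rows are mostly 0, with 2 counts in replacement cow 2 and 1 in replacement cow 3.

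The 21 sparse members differed in where they were seen. Control cows 1 to 3 had 51, 57 and 61 counts of them, and replacement cows 1 to 3 had 81, 2 and 1. In RPM this was 3.89, 4.53 and 4.91 on the control diet and 6.06, 0.165 and 0.0793 on the replacement diet. Replacement cow 1 was thus the highest of all cows in counts and RPM, and the other 2 replacement cows were nearly empty. Of its 81 counts, 42 were bta-miR-665. As a share of the known counts it held 0.0458%, below control cows 1 and 3 (0.0724% and 0.0997%) and above control cow 2 (0.0354%). The difference of the diet means was -2.34 RPM. It was -4.32 RPM without replacement cow 1, -1.38 RPM without replacement cow 2 and -1.33 RPM without replacement cow 3. Without 1 of the control cows it ran from -2.62 to -2.11 RPM.

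Of the 23 members, control cows 1 to 3 had 11, 8 and 12 with a count, and replacement cows 1 to 3 had 8, 4 and 3. At the depth of the smallest library (61156 known counts) the expected numbers were 10.6, 6.98 and 12.0 for the control diet, and 7.13, 3.27 and 2.88 for the replacement diet. The diets thus met between control cow 2 and replacement cow 1. Replacement cows 2 and 3 were also lowest for the other known miRNAs, with 163, 175 and 169 of 253 on the control diet and 168, 137 and 139 on the replacement diet. Among the other known miRNAs that, like the 21 sparse members, did not pass the filter on low counts, 32.3%, 40.2% and 35.4% were seen in control cows 1 to 3, and 34.6%, 19.7% and 20.5% in replacement cows 1 to 3. For the 21 sparse members these values were 42.9%, 28.6% and 47.6%, then 28.6%, 9.52% and 4.76%. The share detected was thus lowest in replacement cows 2 and 3 for both kinds, but the lowest counts fell in different cows. The other sparse known miRNAs had 264, 896 and 365 counts in control cows 1 to 3, and 832, 565 and 557 in replacement cows 1 to 3. For the sparse members these counts were 51, 57 and 61, then 81, 2 and 1.

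**Figure D4:**
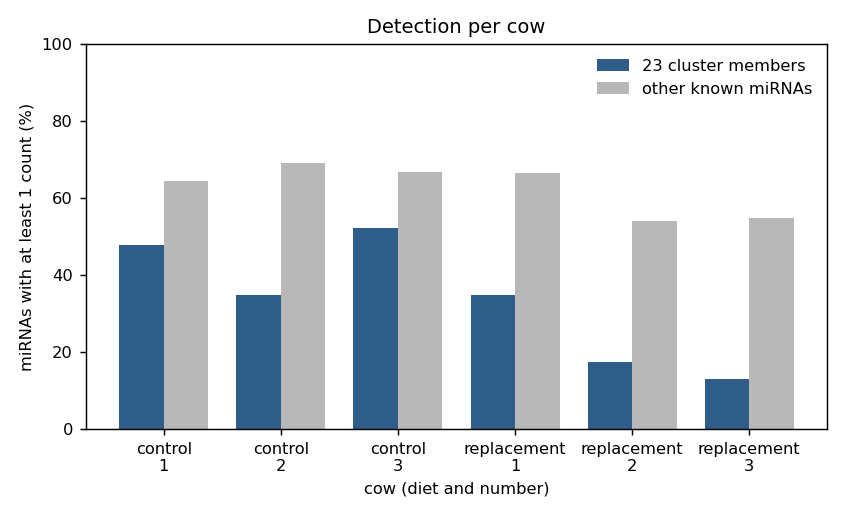
Percent of miRNAs with at least 1 count (y axis) in each cow (x axis), for the 23 cluster members (dark) and the 253 other known miRNAs (grey). The members range from 13% in replacement cow 3 to 52.2% in control cow 3, the other known miRNAs from 54.2% to 69.2%, and both are lowest in replacement cows 2 and 3.

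On the control diet alone, 12 of the 23 members were seen, and bta-miR-377 was the sole member seen on the replacement diet alone. Of the 21 sparse members these were 57.1% and 4.76%, against 41.7% and 25.2% of the other sparse known miRNAs. The count of 12 became 18 without replacement cow 1 and 9 without any of the control cows. No test was made on these counts, and miRNAs of a cow share its library.

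The position of bta-miR-380-3p among its neighbours was also examined. Its gene is the 13th miRNA gene from DLK1, and the nearest member genes are MIR411A on the side of DLK1 and MIR323 on that of DIO3. In replacement cow 2, bta-miR-380-3p had 64 counts whereas bta-miR-411a and bta-miR-323 had 0, which allows a share of up to 0.00312% each. In replacement cow 3 the counts of bta-miR-380-3p, bta-miR-411a and bta-miR-323 were 30, 0 and 0, and in replacement cow 1 they were 42, 9 and 0. The neighbours were present in control cows, with 15, 0 and 11 counts in control cow 1, 8, 32 and 0 in control cow 2, and 11, 4 and 0 in control cow 3. The order of the 3 miRNAs therefore differed between cows. How reads that match several places were counted is not stated in the sources used here.

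Markers of other cell types were set beside these values. As a share of the known counts, the mammary epithelium markers summed to 0.872% to 1.16% with the control diet and 0.459% to 0.861% with the replacement diet. The gap was narrow, from 0.861% in replacement cow 1 to 0.872% in control cow 2, and the sum was taken as a share only. Their most abundant miRNA, bta-miR-148a, overlapped, at 0.657% to 0.851% (control) against 0.351% to 0.751% (replacement). In edgeR 7 of these markers were tested and 0 called. Log2 fold changes were positive for bta-miR-183 (0.65) and bta-miR-375 (0.60) and negative for the other tested markers. In replacement cow 2, only 54.2% of the 253 known miRNAs outside the cluster had a count, so zeros were common in that library. It had 0 counts of 6 of the 11 epithelium markers, bta-miR-141, bta-miR-200a, bta-miR-200b, bta-miR-200c, bta-miR-205 and bta-miR-429. Of these, bta-miR-200b, bta-miR-141 and bta-miR-429 were sparse throughout, with at most 1, 11 and 13 counts in any cow. The same cow had 338 counts of bta-miR-148a, 46 of bta-miR-375, 16 of bta-miR-96 and 3 of bta-miR-182. It also had the highest count of bta-miR-183, at 39 against 5, 7 and 25 in the control cows. The stroma list (6 miRNAs) ranged from 0.298% to 0.824% on the control diet and from 0.213% to 0.616% on the replacement diet. Of the striated muscle list, bta-miR-1 had 31 counts in replacement cow 3 and 0 to 2 counts in the others. In contrast, bta-miR-206 had 0 counts in replacement cow 3 and its highest count, 5, in control cow 3. Both bta-miR-133a and bta-miR-133b were at 0 outside control cow 1. Brain was represented by bta-miR-128 alone, at 0.137% ± 0.0397 (SD, n = 6). Leukocyte markers summed to 2.29% to 3.18% (control) against 2.00% to 3.15% (replacement). Red blood cell markers summed to 7.21% to 20.1% against 6.52% to 10.9%. Placenta and embryo miRNAs of other clusters summed to 0.00981% to 0.0496% (control) against 0.0208% to 0.0503% (replacement). All 3 of these lists overlapped between the diets. The part of these cells in the members' values was not tested, and in such bulk samples fewer cells or vesicles of a type cannot be told apart from less RNA in each.

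Other imprinted regions gave 2 miRNAs of the 5 listed. From the intron of MEST comes miR-335, and miR-296 lies in the GNAS region. With the control diet bta-miR-335 was counted 13, 56 and 24 times, and with the replacement diet 6, 46 and 39 times, a log2 fold change of 0.00 ± 1.12 (standard error, edgeR, adjusted p = 0.997). For bta-miR-296-3p the counts were 57, 83 and 8, then 46, 0 and 47, with a log2 fold change of -0.74 ± 1.51 (standard error, edgeR, adjusted p = 0.986). Both overlapped between the diets. Of 10 further miRNAs of the DLK1-DIO3 region that were listed outside the rule, 0 were among the known miRNAs with counts.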

How the data were processed

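Per the paper's methods and the submitters' processing notes, reads were trimmed with Cutadapt 1.14, aligned to the cow genome (Bowtie and ARS-UCD1.2 are named), cleared of other RNA with Rfam and BLAST, and annotated with miRBase, with further miRNAs predicted by miRDeep2. The authors deposited whole-number counts per mature miRNA, and the same values as RPM (named TPM, without a length term). A deposited table of the authors' own diet comparison (fold changes, p-values) was not used. Counter, strand and multi-mapping rules are not given in the sources used here.

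Diet and number came from the sample titles. Shares were computed of all known (bta-) counts per cow. Diets were compared over the whole table with edgeR 4.0.16 (R 4.3.3) by TMM scaling, filterByExpr with a minimum count of 10 and the quasi-likelihood test, with calls at a Benjamini-Hochberg adjusted p of 0.05, checked on simulated counts. DESeq2 1.42.0 and limma 3.58.1 on log2(RPM + 1), other normalizations, no filter, known miRNAs alone, the replicate block and leaving out each cow were alternatives. Exact permutation tests used scipy 1.17.1. Of the members, 2 passed the filter. For bta-miR-380-3p 5 cows reached its minimum, 2 of them control cows. Cows of the same diet differed beyond sampling noise (chi-square per degree of freedom 63.2 to 223). The labels do not say that they are independent in herd or pen, so p-values measure the spread between these cows. Full values are given for members that passed the filter and for those with the highest shares, and members seen in 1 cow are named. The text on neighbours of bta-miR-380-3p was chosen after its values were seen. Members and lists were chosen with earlier results of these data known.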

Additional observations from a re-analysis of the deposited data

How the results depend on the processing

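No member was called under any of the 13 alternatives, by edgeR, DESeq2 or limma, and both log2 fold changes kept their sign. That of bta-miR-127 ran from 0.28 to 1.43 and that of bta-miR-380-3p from 1.24 to 2.34, and their adjusted p from 0.534 to 0.999 and from 0.50 to 0.999. With library size alone the values were 1.43 and 2.34, where the median of all tested miRNAs moved from 0.03 to 0.63, so that relative to the median they were 0.80 and 1.71. The unadjusted p of bta-miR-380-3p was 0.0464 in that edgeR setting (adjusted 0.623) and 0.035 with limma (adjusted 0.735). Of the 227 miRNAs tested, 11 and 13 were under an unadjusted p of 0.05 in these 2 settings. Leaving out 1 cow gave 0.28 to 1.23 and 1.25 to 2.08. Of all miRNAs, 0 were called in the edgeR fit, against 15 without a filter and 7 by DESeq2.

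The numbers 1 to 3 were not treated as pairs, since the labels do not say that they pair cows. The correlations of same-numbered cows were -0.112, -0.155 and 0.171, and those of differently numbered cows ran from -0.255 to 0.316. With 3 cows per diet, such correlations cannot show whether cows were paired. With a replicate block, the log2 fold changes were 0.82 and 1.69 (adjusted p = 0.982 for both) and 0 members were called.

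The share of the members was 0.0676% of known and predicted miRNAs together. On that total it ran from 0.0266% to 0.0627% on the control diet and from 0.0696% to 0.122% on the replacement diet. Of the known counts, the members' share was 0.0724% without miR-127, and it ran from 0.209% to 0.286% when a cow was left out. Of the 23 members, 11 reached 10 counts in some cow, 2 were in every cow, and 20 to 23 were left without 1 cow. The number seen on the control diet alone, an alternative set chosen after the data were seen, was 6 with at least 10 counts and 9 to 18 without 1 cow. With 8 to 64 counts of bta-miR-380-3p per cow, counting error limits its values, and for the 21 sparse members levels could not be resolved at this depth.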
